A study of Mus musculus with 6 samples.

Results

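The 37 genes described here build, anchor and remodel the extracellular matrix of the brain. They were chosen by symbol from a table of 24421 genes and comprise 7 lecticans and other proteoglycans, 4 link proteins, 6 glycoproteins, 14 basement membrane genes and 6 proteases and protease inhibitors. All 37 are in the table. The RNA came from mCherry-positive cells that were sorted from mouse cortex at postnatal day 21 and labelled as CD51+ astrocytes. Every animal was a CD51-Flp mouse that had received AAV-GFAP-FSF-hM3D-mCherry after birth, so both groups carry the same receptor, hM3D, a designer Gq-coupled receptor that clozapine-N-oxide (CNO) activates. In the CNO group (3 libraries, CNO 1, 2 and 3) dosing with CNO ran from postnatal day 7 until day 21, 2 times per day. The saline group (3 libraries, saline 3, 4 and 5) had saline on that schedule. The receptor is limited to cells in which Flp, expressed from the gene of CD51 (integrin alpha V), and the GFAP promoter are both active. A CNO group without the receptor is not part of these libraries. The labels do not say whether each library is 1 animal or a pool, and p-values measure the spread between these libraries, which may be technical.

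The matrix of the cortex is built on hyaluronan. Lecticans bind hyaluronan through link proteins and are crosslinked by tenascins, and this mesh condenses into perineuronal nets while the cortex matures. Astrocytes and cells of the oligodendrocyte lineage make most of it. The basement membrane is a separate sheet around vessels and under the pia, made of laminin trimers, collagen IV, nidogens and heparan sulfate proteoglycans, to which astrocyte endfeet attach and to which astrocytes, endothelial cells and pericytes contribute. Metalloproteases of the MMP and ADAMTS families cut these proteins, and TIMPs inhibit the proteases.

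The sort and the depth bear on every value. Libraries held 3908076 reads (CNO 1) to 19224186 reads (CNO 2). Values are normalized counts, reads divided by 1 size factor per library, so that a single read of CNO 1 was worth 4.23, and elsewhere a read was worth 0.503 to 0.970. All 15 astrocyte markers had reads in every library and took 3.64%, 2.56% and 1.10% of reads in CNO 1, 2 and 3 and 3.02%, 2.01% and 2.18% in saline 3, 4 and 5. These markers did not move together, and their median log2 fold change was 0.55. Gfap had 4.23 (a single read), 952 and 59.2 in CNO 1, 2 and 3. In saline 3, 4 and 5 it had 1307, 374 and 507. S100b had 3630, 5826 and 4890 in CNO 1, 2 and 3. In saline 3, 4 and 5 it had 1005, 877 and 1212. Of the 12 oligodendrocyte markers, 2 had 0 reads in CNO 1. Together the 12 took 11.1%, 24.5% and 18.8% of reads in CNO 1, 2 and 3 and 5.33%, 6.10% and 7.87% in saline 3, 4 and 5, so a transcript cannot be assigned to astrocytes alone. Fewer cells of a type and less RNA per cell cannot be told apart in these libraries. CNO 1 stood apart, since 35.2% of tested genes had 0 reads there. The shares were 8.93% in CNO 2, 20.1% in CNO 3 and between 3.39% and 3.88% with saline.

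No matrix gene passed the test between CNO and saline. Of the 37, 34 reached the mean of 10 normalized counts needed for testing, and 0 of them had an adjusted p under 0.05 in limma on log2 values (lowest adjusted p = 0.488). In the same fit, 2 of all 13028 tested genes were called, 0.0154%. At an unadjusted p under 0.05 limma gave 1 matrix gene as higher in CNO, Timp3, and 1 as lower, Hspg2, where all tested genes gave 2.28% higher and 7.25% lower. edgeR, DESeq2 and limma-voom on the recovered reads also called 0 of the 34, where they called 0%, 1.86% and 0.123% of all tested genes. DESeq2 gave no adjusted p for Acan and Fbln2, so it could not call them. Without overlap between groups, 2 of 34 (5.88%) were higher in every CNO library, against 4.57% of all tested genes, and 3 (8.82%) were lower in every CNO library, against 12.5%. Those counts are near the background. The 5 genes are Timp3 and Adamts4, which were higher in CNO, and Timp2, Col4a2 and Hspg2, which were lower. The median log2 fold change of the 34 was -0.78, and that of all tested genes was -0.89. This order depended on the settings, and without CNO 1 the medians were -0.89 and -0.45. With Acan and Fbln2, which had 0 reads in every CNO library, set to their bound, the median of the 34 remained -0.78. This replacement could not move the median, because the fitted values and the bounds of both genes lie below it. Where all 6 libraries held a read, the medians were -0.34 for 25 matrix genes and -0.09 for all 7395 genes.

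**Figure D1:**
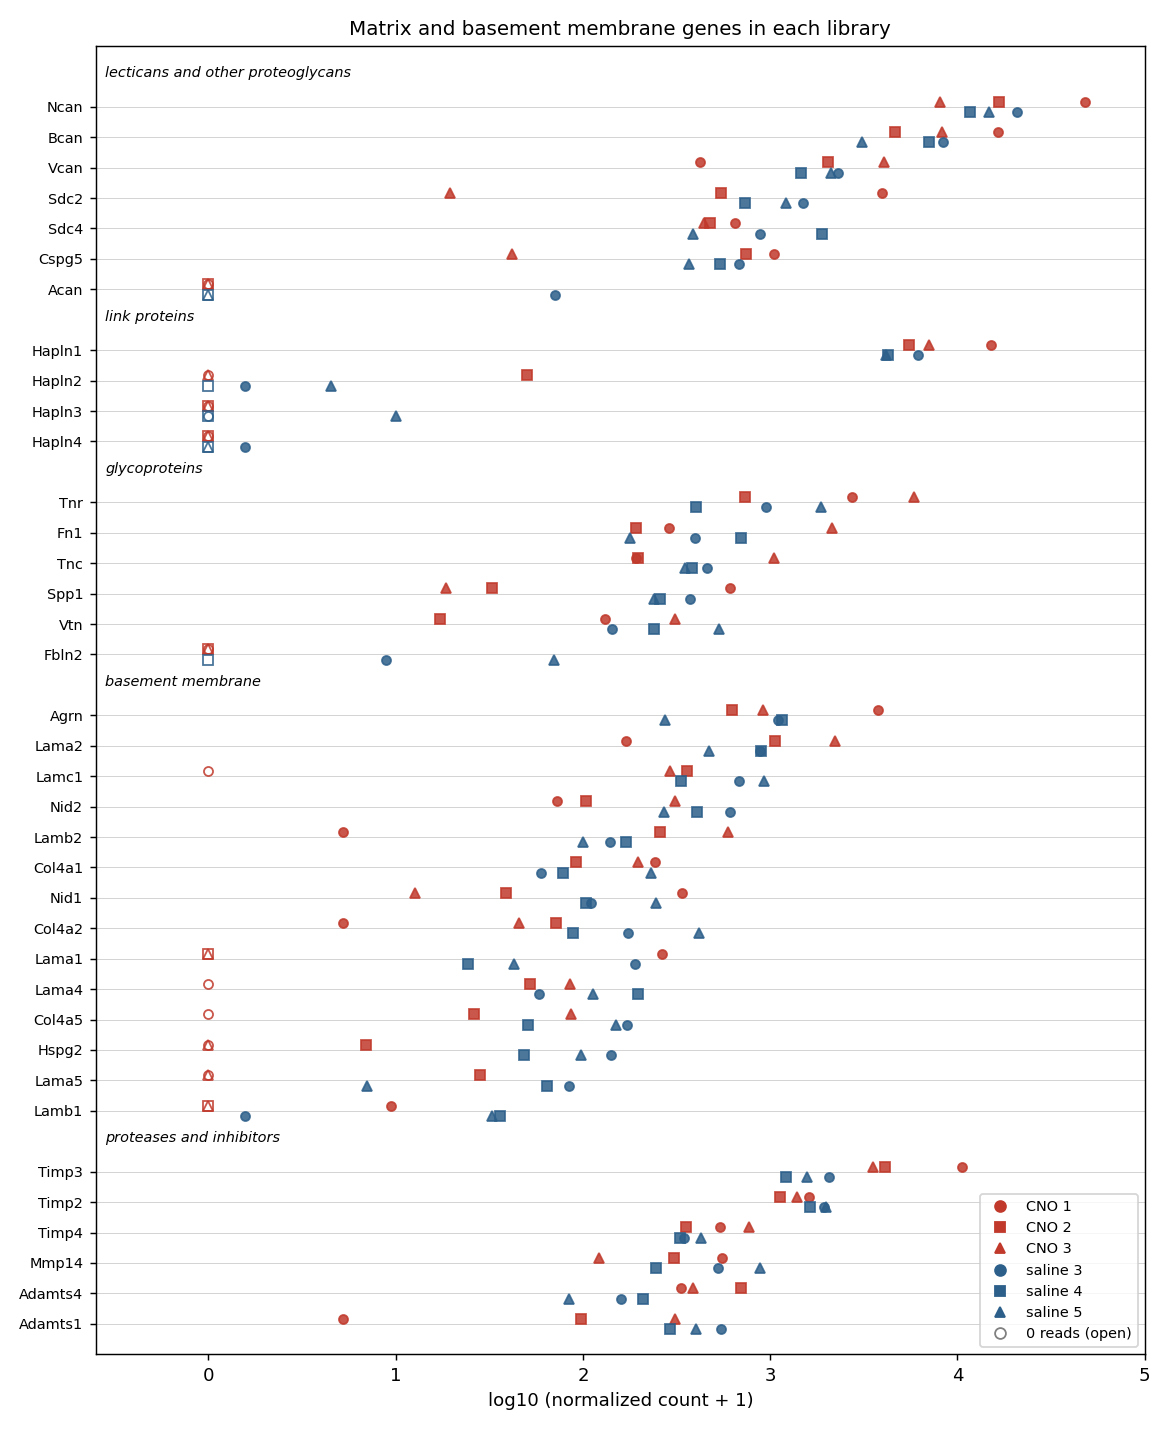
Level of each of the 37 genes in each library, as log10 of the normalized count plus 1 (horizontal axis), in 5 groups by role. Red symbols are the CNO libraries, drawn above the blue saline libraries, and open symbols are libraries with 0 reads. Ncan, Bcan and Hapln1 lie at the right, the CNO symbols of most genes are spread more widely than the saline symbols, and Timp3 has all 3 CNO symbols to the right of the saline ones.

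Among the 37 genes, lecticans and other proteoglycans took the largest share of reads, a mean of 0.244% in CNO and 0.274% in saline. A list of glycoproteins and proteoglycans outside the 37 took more, a mean of 0.833% in CNO and 0.945% in saline. Ncan (neurocan, a lectican of the developing brain; chromosome 8, 70093085 to 70120873, GRCm38) had 48112, 16753 and 8116 normalized counts in CNO 1, 2 and 3 and 20686, 11705 and 14664 in saline 3, 4 and 5. The CNO values lie on both sides of the saline range (log2 fold change 0.29 ± 0.54, SE, limma adjusted p = 0.841), and without CNO 1 the log2 fold change was -0.39. Bcan (brevican, the lectican that is cleaved by ADAMTS4; chromosome 3, 87987531 to 88000230) had 16401, 4627 and 8261 in CNO 1, 2 and 3 and 8353, 7065 and 3090 in saline 3, 4 and 5 (0.59 ± 0.53, adjusted p = 0.682). Bcan and Ncan were both highest in CNO 1, the library with the most astrocyte marker counts. Both fold changes turned negative with quantile scaling and with scaling by total reads. Vcan (versican, made by oligodendrocyte precursors and fibroblasts among others; chromosome 13, 89655312 to 89742509) ran the other way across the CNO libraries, with 418, 2040 and 4076 in CNO 1, 2 and 3 and 2300, 1464 and 2104 in saline 3, 4 and 5. Its log2 fold change was -0.34 ± 0.77 (adjusted p = 0.874) and 0.59 without CNO 1. Vcan therefore stood at 0.0087, 0.122 and 0.502 of Ncan in CNO 1, 2 and 3, where the saline libraries held 0.111, 0.125 and 0.143. Acan (aggrecan, the lectican typical of perineuronal nets and made mostly by neurons; chromosome 7, 79053483 to 79115099) had 0 reads in every CNO library and in saline 4 and 5, and 70.3 normalized counts in saline 3. Fitted values for Acan rest on that library alone.

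Each link protein gene lies beside a lectican gene, and the partners were not expressed alike. Hapln1 (chromosome 13, 89539796 to 89611652), which lies 43.7 kb from Vcan, was the link protein of these cells, with 15104, 5523 and 7033 normalized counts in CNO 1, 2 and 3 and 6131, 4245 and 4154 in saline 3, 4 and 5. CNO 2 lay inside the saline range and CNO 1 and 3 above it (log2 fold change 0.81 ± 0.44, limma adjusted p = 0.567). Hapln2, a link protein of myelinated fibres that lies 21.5 kb from Bcan, had 0, 49.6 and 0 in CNO 1, 2 and 3 and 0.567, 0 and 3.52 in saline 3, 4 and 5. Hapln3 beside Acan and Hapln4 beside Ncan (2.22 kb apart) had 0 reads in every CNO library, and each had reads in 1 saline library (9.06 normalized counts of Hapln3 in saline 5 and 0.567 of Hapln4 in saline 3). These 3 link proteins were too low to be tested. Per kilobase of exon, Ncan averaged 3381 in CNO and 2180 in saline, Bcan 2402 and 1518, and Hapln1 1562 and 821. These means had the same order in both groups, although the library values of genes adjacent in this order overlapped. The order did not hold in every library. In CNO 3 Bcan, with the shorter exons, had more counts than Ncan, 8261 against 8116. Per kilobase Bcan also exceeded Ncan in saline 4, with 7065 counts on 4.064 kb of exon against 11705 on 7.195 kb. Together Ncan, Bcan and Hapln1 held 73.6%, 65.1% and 48.1% of the counts of the 37 genes in CNO 1, 2 and 3. In saline 3, 4 and 5 they held 66.5%, 61.9% and 57.7%.

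Set against astrocyte markers, Ncan, Bcan and Hapln1 overlapped between groups. Their sum divided by the summed markers was 0.132, 0.0737 and 0.128 in CNO 1, 2 and 3 and 0.118, 0.119 and 0.105 in saline 3, 4 and 5. The CNO mean of 0.111 ± 0.033 and the saline mean of 0.114 ± 0.008 (SD, n = 3 each) differed by less than the spread among the CNO libraries. These ratios are free of the size factors, and they were chosen after the values were seen. The ratio of Ncan to Hapln1 was 3.19, 3.03 and 1.15 in CNO 1, 2 and 3 and 3.37, 2.76 and 3.53 in saline 3, 4 and 5, so that CNO 3 lay below the other 5 libraries.

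The transmembrane proteoglycans Sdc2, Cspg5 and Sdc4 averaged below Ncan, Bcan and Vcan, and their spread differed. The highest CNO library exceeded the lowest 214-fold in Sdc2 and 25.6-fold in Cspg5, but 1.47-fold in Sdc4. Sdc2 (syndecan 2, a heparan sulfate proteoglycan and co-receptor; chromosome 15, 32920723 to 33034935) had 3943, 548 and 18.4 normalized counts in CNO 1, 2 and 3 and 1498, 733 and 1219 in saline 3, 4 and 5. The CNO libraries span from below to above the saline range (log2 fold change -1.66 ± 1.51, limma adjusted p = 0.688), and the fold change was 0.42 without CNO 3. Cspg5 (neuroglycan C) showed the same low value in CNO 3, with 1044, 738 and 40.7 in CNO 1, 2 and 3 and 684, 539 and 369 in saline 3, 4 and 5. Sdc4 averaged 524 ± 111 in CNO and 1050 ± 760 in saline (SD, n = 3 each), with overlap.

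Among the glycoproteins, 6 of 6 overlapped between groups. Tnr (tenascin R, the tenascin of perineuronal nets, made by oligodendrocyte lineage cells and some neurons; chromosome 1, 159523769 to 159931729) had 2738, 734 and 5882 normalized counts in CNO 1, 2 and 3 and 952, 399 and 1862 in saline 3, 4 and 5. CNO 1 and 3 lay above every saline library and CNO 2 within their range (log2 fold change 1.35 ± 0.83, limma adjusted p = 0.602). Without CNO 3 the fold change was 0.67, without saline 4 it was 0.77, and without CNO 2 it was 2.17. CNO 3, the highest in Tnr, also held the largest sum of oligodendrocyte precursor markers, 11587 normalized counts, where CNO 1 and 2 held 6402 and 4207 and saline ranged over 1963 to 4435. The markers were split, since Olig1 alone gave 3787 of that sum and 3 of the 10, Cspg4 and Neu4 among them, had 0 reads in CNO 3. The median log2 fold change of the 9 tested precursor markers was -0.81. The part of oligodendrocyte precursors in the Tnr values was not tested. Tnc (tenascin C, a tenascin of immature and reactive astrocytes) had 190, 197 and 1052 in CNO 1, 2 and 3 and 461, 383 and 350 in saline 3, 4 and 5. Fn1 (fibronectin) was likewise highest in CNO 3, with 287, 191 and 2131 in CNO 1, 2 and 3 and 395, 698 and 177 in saline 3, 4 and 5. Vtn (vitronectin, a ligand of alpha V integrins) averaged 152 ± 147 in CNO and 305 ± 204 in saline. Spp1 (osteopontin, another alpha V ligand) had 609, 31.8 and 17.5 in CNO 1, 2 and 3 and 373, 258 and 239 in saline 3, 4 and 5. Fbln2 (fibulin 2) had 0 reads in every CNO library and 7.94, 0 and 69.5 normalized counts in saline 3, 4 and 5. Measured against a floor of 3 reads per CNO library, its mean was at least 4.35-fold lower in CNO, and its log2 fold change was -3.10 ± 1.73 (limma adjusted p = 0.572). Both rest on saline 5: without it the log2 fold change was -1.58 and the saline level lies under the floor, so that no bound remains.

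Of the 14 basement membrane genes, 0 passed. On the log2 scale 3 had a fold change above 0 and 11 below it, with a median of -2.63, where 31.7% of all tested genes lay above 0. By group means, 5 of the 14 were higher in CNO (Col4a1, Lama1, Lama2, Lamb2 and Agrn), since a library with 0 reads weighs more on the log2 scale. Low genes in general were lower in CNO, with a median of -2.28 over all tested genes averaging 10 to 100. Over the 8 matrix genes at that level, Acan and Fbln2 among them, the median was -3.08. Of the 14, Col4a5, Lama1, Lama4, Lama5, Lamb1 and Hspg2 averaged 10 to 100, and the others averaged more. The next band of level holds the others except Agrn, with medians of -0.83 over 6397 tested genes and -0.74 over 17 matrix genes. The part of level in the basement membrane median was not tested. In CNO 1, 2 and 3, 5, 2 and 4 of the 14 had 0 reads, where 35.2%, 8.93% and 20.1% of all tested genes did. Every one of the 14 had reads in every saline library, where 3.39% to 3.88% of all tested genes had 0. Hspg2 (perlecan, the large heparan sulfate proteoglycan that links laminin and collagen networks; chromosome 4, 137468769 to 137570630) had 0, 5.92 and 0 normalized counts in CNO 1, 2 and 3 and 139, 47.2 and 96.1 in saline 3, 4 and 5. Every CNO library lay below every saline library, and the log2 fold change was -5.51 ± 1.93 (limma unadjusted p = 0.0153, adjusted p = 0.488). It was -2.73 with quantile scaling (unadjusted p = 0.132, adjusted p = 0.750) and -3.30 with a pseudocount of 8. The CNO value rests on 8 reads in CNO 2. Col4a2 had 4.23, 71.0 and 44.6 in CNO 1, 2 and 3 and 174, 87.2 and 417 in saline 3, 4 and 5, also without overlap (-2.85 ± 1.73, adjusted p = 0.598). CNO 1 holds 1 read of Col4a2, and without CNO 1 its log2 fold change was -1.70.

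Collagen IV showed unequal levels of its partner chains. Col4a1 and Col4a2, which encode the chains of the most widespread collagen IV trimer, lie head to head on chromosome 8, and their annotated first exons overlap by 22 bases (Col4a1 11198423 to 11312826, minus strand; Col4a2 11312805 to 11449287, plus strand). Col4a1 had 241, 91.0 and 197 normalized counts in CNO 1, 2 and 3 and 58.4, 76.8 and 229 in saline 3, 4 and 5, with overlap (log2 fold change 0.68 ± 1.31, limma adjusted p = 0.848). The ratio of Col4a1 to Col4a2 was 57.0, 1.28 and 4.41 in CNO 1, 2 and 3 and 0.336, 0.881 and 0.551 in saline 3, 4 and 5. This pair was picked out after its values were seen, so its separation is a description. Col4a5, a chain of another collagen IV trimer on the X chromosome, averaged 36.8 ± 43.9 in CNO and 123 ± 64.4 in saline.

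Among the 7 laminin chains 0 passed, and the fitted fold changes of all but Lama2 were below 0. Lama2 (chain alpha 2, the laminin of astrocyte endfeet and muscle) had 169, 1062 and 2228 normalized counts in CNO 1, 2 and 3 and 884, 889 and 471 in saline 3, 4 and 5 (log2 fold change 0.04 ± 0.94, limma adjusted p = 0.992). Lamb2 followed the same order, with 4.23, 258 and 597 in CNO 1, 2 and 3 and 138, 168 and 99.1 in saline 3, 4 and 5. Lamc1, the gamma chain shared by most laminins, had 0, 360 and 290 in CNO 1, 2 and 3 and 677, 335 and 926 in saline 3, 4 and 5 (-3.66 ± 2.01, adjusted p = 0.570). CNO 2 lay inside the saline range of Lamc1 and CNO 3 below it, and CNO 1 held 0 reads. The log2 fold changes of Lama1, Lama4, Lama5, Lamb1 and Lamb2 were -3.18, -2.73, -3.46, -2.54 and -0.51. The endothelial chains Lama4 and Lama5 averaged 45.2 ± 42.5 and 9.13 ± 15.8 in CNO and 122 ± 69.9 and 50.7 ± 39.9 in saline. Lama1 averaged 87.3 ± 151 and Lamb1 2.82 ± 4.88 in CNO, and 84.2 ± 90.1 and 22.5 ± 19.1 in saline, all SD with n = 3.

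The linkers of the basement membrane showed no common direction. Nid2 (nidogen 2, which bridges laminin and collagen IV) had 71.8, 103 and 309 normalized counts in CNO 1, 2 and 3 and 607, 406 and 271 in saline 3, 4 and 5, with CNO 3 inside the saline range (limma adjusted p = 0.619). Nid1 averaged 129 ± 181 in CNO and 153 ± 80.8 in saline. Agrn (agrin, a heparan sulfate proteoglycan of endfeet and synapses) had the highest basement membrane level per kilobase of exon, 190 in CNO and 90.6 in saline, with 3757, 627 and 918 in CNO 1, 2 and 3 and 1096, 1156 and 272 in saline 3, 4 and 5 (log2 fold change 0.88 ± 0.86, adjusted p = 0.706). Only CNO 1 exceeded the saline range.

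Vessel markers were present beside these values and overlapped between groups in sum. The 12 endothelial markers summed to 393 to 6547 normalized counts in CNO and 842 to 2389 in saline. Among the endothelial markers, 6, 3 and 1 of 12 had 0 reads in CNO 1, 2 and 3 and 0, 0 and 1 in saline 3, 4 and 5. The 11 mural markers summed to 939 to 5402 in CNO and 880 to 1789 in saline. Of the 11, 4 were at 0 in every CNO library and 1 in every saline library. By library, 7, 4 and 5 were at 0 in CNO 1, 2 and 3 and 3, 2 and 2 in saline 3, 4 and 5. Only 7 of the 11 were high enough to be tested. Of all tested genes, 3.98% were at 0 in every CNO library. In CNO 3 the endothelial and mural sums both exceeded that of the 14 basement membrane genes, 4765. Of the tested markers, 1 of 12 endothelial and 1 of 7 mural markers were lower in every CNO library. Among all tested genes 12.5% were, so these counts are near the background. The markers were Esam (an endothelial adhesion molecule) and Notch3 (a receptor of mural cells). Esam had 0, 0 and 5.82 in CNO 1, 2 and 3 and 45.4, 82.4 and 264 in saline 3, 4 and 5. Notch3 had 0, 0 and 0 in CNO 1, 2 and 3 and 498, 5.60 and 10.6 in saline 3, 4 and 5. Pdgfrb, the growth factor receptor of pericytes, had 2261, 559 and 1290 in CNO 1, 2 and 3 and 571, 378 and 227 in saline 3, 4 and 5 (log2 fold change 1.68 ± 0.79, limma adjusted p = 0.537). The part of vessel cells in the basement membrane values was not tested.

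**Figure D2:**
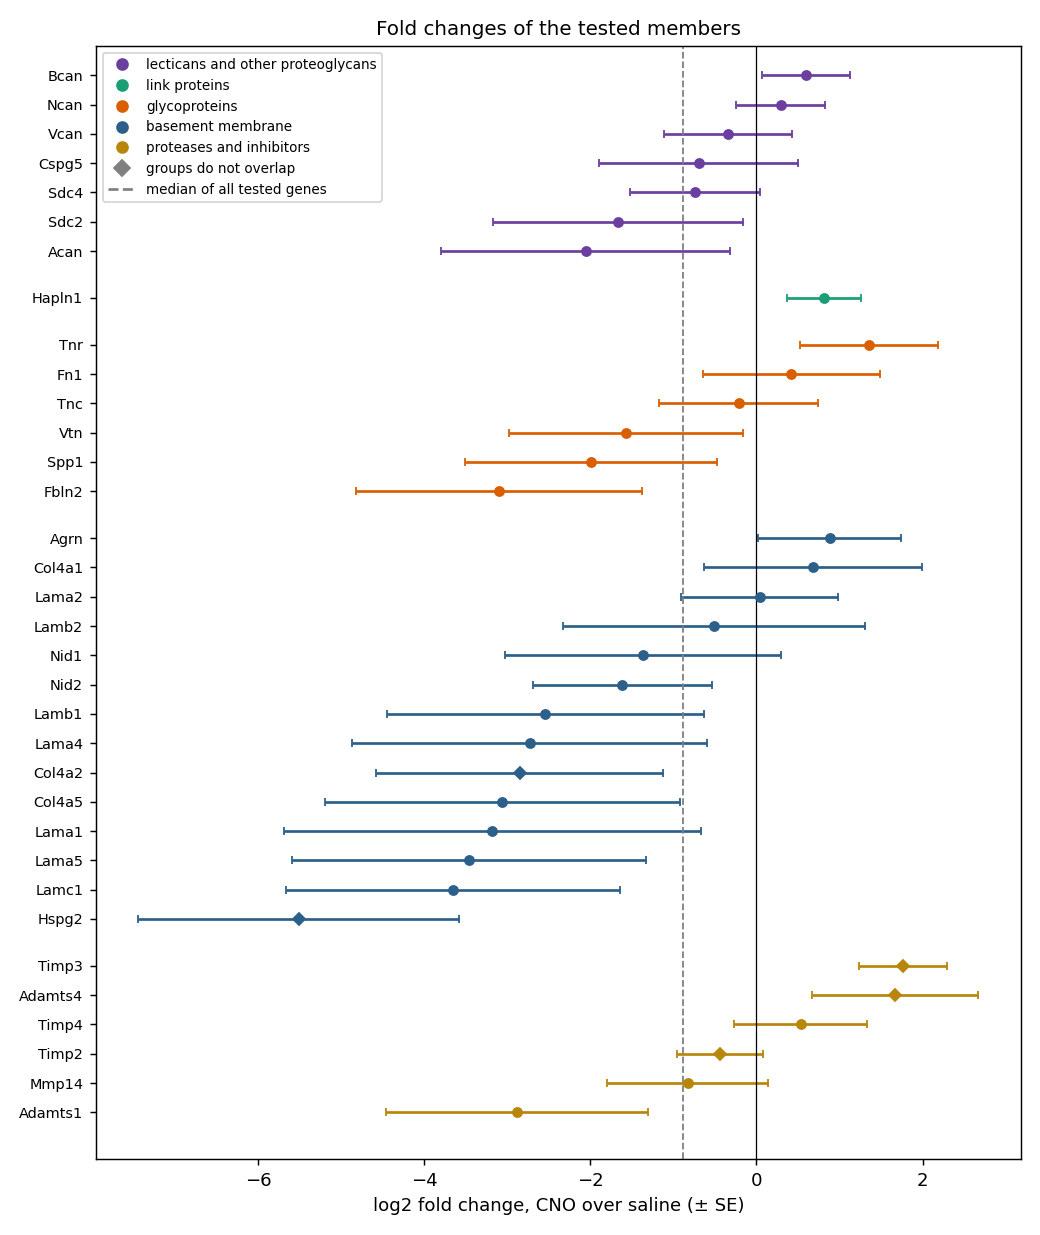
Log2 fold change, CNO over saline, with its SE for the 34 tested genes (horizontal axis), coloured by role. Diamonds mark the 5 genes without overlap between groups, the solid line is 0 and the dashed line is the median of all tested genes, -0.89. Timp3 and Adamts4 lie farthest to the right and Hspg2 farthest to the left with a wide error.

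The inhibitor Timp3 gave the lowest p of the 34. Timp3 (a TIMP that binds to the matrix and inhibits MMP14, ADAMTS4 and other proteases; chromosome 10, 86300372 to 86349506) had 10607, 4110 and 3558 normalized counts in CNO 1, 2 and 3 and 2071, 1213 and 1575 in saline 3, 4 and 5. Every CNO library lay above every saline library, with means of 6092 ± 3920 and 1620 ± 431 (SD, n = 3 each), a ratio of 3.76. The log2 fold change was 1.76 ± 0.53 (SE, limma unadjusted p = 0.00659, adjusted p = 0.488), and it was 1.27 without CNO 1. Relative to the median of all tested genes Timp3 stood 2.65 higher. As RPM, reads scaled to equal library totals, the groups still did not overlap, but narrowly, at 642, 289 and 214 in CNO 1, 2 and 3 and 210, 126 and 164 in saline 3, 4 and 5. Timp3 lies inside Syn3, a gene on the opposite strand, and 21.3% of its exon length is shared with Syn3 exons. Strand handling is not given in the sources used here, and Syn3 itself had 54.9, 28.1 and 336 normalized counts in CNO 1, 2 and 3 and 47.1, 129 and 132 in saline 3, 4 and 5.

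Timp2 (the TIMP that also takes part in the activation of MMP2 by MMP14; chromosome 11, 118301069 to 118355740) went the other way, with 1610, 1122 and 1391 in CNO 1, 2 and 3 and 1942, 1626 and 1982 in saline 3, 4 and 5. The groups did not overlap, by a margin of 1610 against 1626, and the log2 fold change was -0.44 ± 0.52 (limma adjusted p = 0.751). Timp2 still stood 0.45 above the median of all tested genes. The ratio of Timp3 to Timp2, which does not depend on the size factors, was 6.59, 3.66 and 2.56 in CNO 1, 2 and 3 and 1.07, 0.746 and 0.795 in saline 3, 4 and 5, a mean of 4.27 ± 2.08 against 0.869 ± 0.173 (SD, n = 3 each). The ratio of Timp3 to the astrocyte markers also separated the groups, at 0.0176, 0.0113 and 0.0195 in CNO 1, 2 and 3 and 0.00695, 0.00627 and 0.00752 in saline 3, 4 and 5. Both ratios were chosen after the values were seen. Timp4 (a TIMP of astrocytes and heart) had 541, 355 and 767 in CNO 1, 2 and 3 and 347, 329 and 426 in saline 3, 4 and 5, with CNO 2 inside the saline range (0.53 ± 0.80, adjusted p = 0.799).

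**Figure D3:**
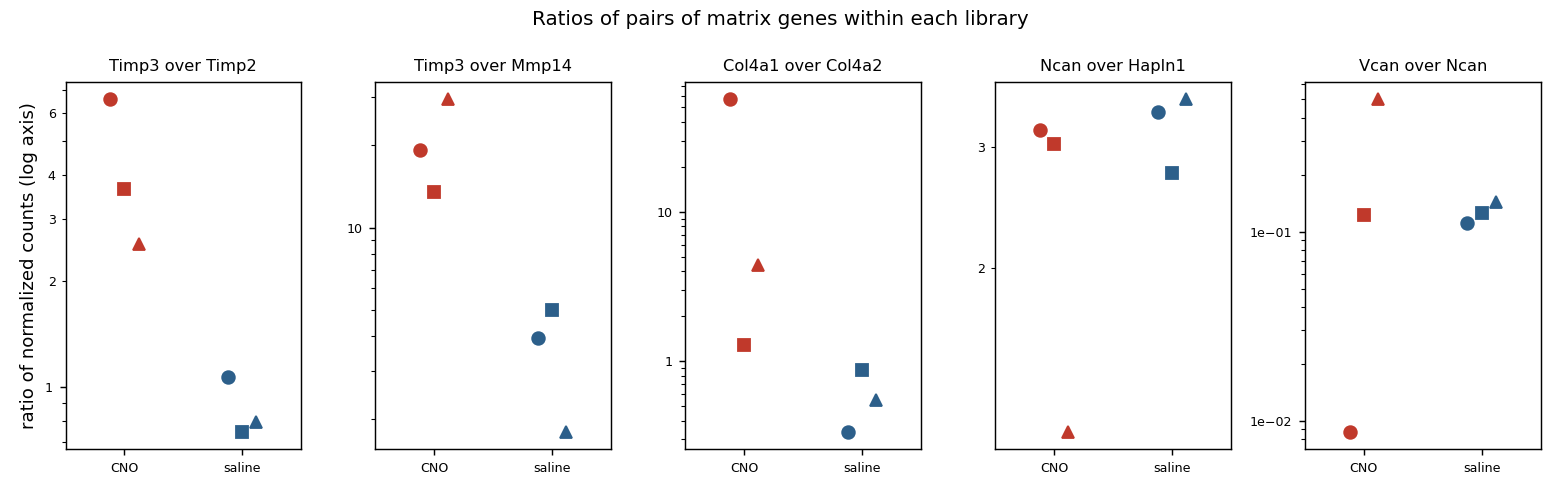
Ratio of normalized counts within each library for 5 pairs of matrix genes (log axes), with the CNO libraries in red at the left and the saline libraries in blue at the right; circles, squares and triangles are CNO 1, 2 and 3 and saline 3, 4 and 5. Timp3 over Timp2, Timp3 over Mmp14 and Col4a1 over Col4a2 do not overlap between groups, while Ncan over Hapln1 and Vcan over Ncan do.

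The proteases did not share a direction. Adamts4 (an aggrecanase that cleaves lecticans, known in mouse brain from oligodendrocytes; chromosome 1, 171250421 to 171260637) had 334, 699 and 385 normalized counts in CNO 1, 2 and 3 and 159, 208 and 83.0 in saline 3, 4 and 5. Its groups did not overlap (log2 fold change 1.67 ± 1.003, limma adjusted p = 0.596). As RPM they did, at 20.2, 49.2 and 23.2 in CNO 1, 2 and 3 and 16.1, 21.6 and 8.66 in saline 3, 4 and 5. The summed oligodendrocyte markers were higher in every CNO library as well, at 1841020 to 3487360 normalized counts in CNO and 525544 to 754645 in saline. Mbp made up most of these sums, with 1585700 to 2963040 in CNO. Of the 12 markers, 7 were higher in every CNO library, against 4.57% of all tested genes. At an unadjusted p under 0.05 limma gave 8 as higher and 1 as lower. The part of oligodendrocytes in the Adamts4 and Timp3 values was not tested. Adamts1, another ADAMTS protease, had 4.23, 96.2 and 310 in CNO 1, 2 and 3 and 542, 292 and 399 in saline 3, 4 and 5 (-2.88 ± 1.58, adjusted p = 0.568). Mmp14 (a membrane-bound matrix metalloprotease) had 549, 304 and 120 in CNO 1, 2 and 3 and 524, 243 and 883 in saline 3, 4 and 5, with overlap. The ratio of Timp3 to Mmp14 was 19.3, 13.5 and 29.6 in CNO 1, 2 and 3 and 3.95, 4.98 and 1.78 in saline 3, 4 and 5. The ratio of Timp3 to Adamts4 overlapped, at 31.8, 5.88 and 9.24 in CNO 1, 2 and 3 and 13.1, 5.83 and 19.0 in saline 3, 4 and 5. That of Timp3 to Timp4 also overlapped, at 19.6, 11.6 and 4.64 in CNO 1, 2 and 3 and 5.97, 3.69 and 3.70 in saline 3, 4 and 5. These ratios too were chosen after the values were seen.

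The sequences upstream of Timp3 and Hspg2 are shown because these genes had the lowest p in each direction. The RefSeq promoter table (GRCm38.p6) held 28 of the 37 genes. Each sequence is 200 bases of the plus strand, 5′ to 3′, ending 11 bases before the GENCODE start of Timp3 (chr10:86300162-86300361) and 17 bases before that of Hspg2 (chr4:137468553-137468752), with GC boxes (GGGCGG on either strand) in capitals.
Timp3: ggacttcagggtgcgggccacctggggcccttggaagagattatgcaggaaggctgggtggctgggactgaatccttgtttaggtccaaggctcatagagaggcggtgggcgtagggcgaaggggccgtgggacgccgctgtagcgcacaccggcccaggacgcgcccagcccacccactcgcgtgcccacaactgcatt
Hspg2: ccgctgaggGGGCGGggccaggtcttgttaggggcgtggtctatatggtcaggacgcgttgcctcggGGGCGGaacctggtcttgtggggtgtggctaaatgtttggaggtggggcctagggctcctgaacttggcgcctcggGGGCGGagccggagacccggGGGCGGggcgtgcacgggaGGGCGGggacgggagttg
The GC box occurred 5 times in the Hspg2 window and 0 times in that of Timp3, and 24.6% of 32851 windows of the same length hold at least 1. Neither window held TGANTCA (AP-1), which 5.57% of windows hold, or TGACGTCA (the cyclic AMP response element), which 0.828% hold. These matches describe the letters of the windows only.

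The spread among libraries was wider in CNO than in saline. For the 25 tested matrix genes that all 6 libraries held, the highest CNO library exceeded the lowest by a median factor of 5.99, and the highest saline library exceeded the lowest by 2.04. The range was wider in CNO for 22 of the 25. CNO 1 was the highest of the CNO libraries for 15 of the 33 genes with a read in CNO and the lowest for 11. As a share of all reads, the 37 genes took 0.655%, 0.291% and 0.293% in CNO 1, 2 and 3 and 0.537%, 0.386% and 0.396% in saline 3, 4 and 5. The basement membrane genes took 0.0294%, 0.0191% and 0.0287% in CNO 1, 2 and 3 and 0.0444%, 0.0378% and 0.0351% in saline 3, 4 and 5, without overlap. Their summed normalized counts overlapped, at 2718 to 4856 in CNO and 3368 to 4380 in saline. Mbp alone took 9.60%, 20.8% and 16.4% of reads in CNO 1, 2 and 3 and 4.58%, 5.17% and 6.30% in saline 3, 4 and 5. Its part in the shares of other genes was not tested. As RPM, 1 of the 34 tested genes (Timp3) was higher in every CNO library and 9 were lower, where all tested genes gave 1.13% and 21.3%.

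**Figure D4:**
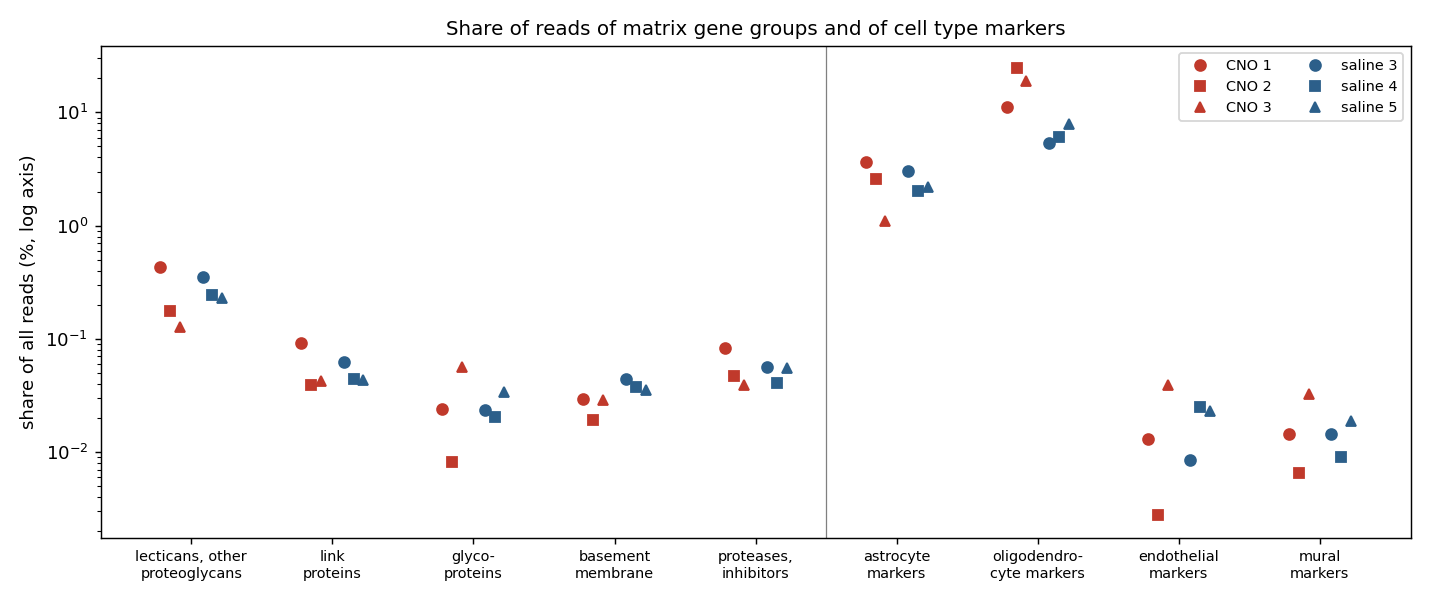
Share of all reads (percent, log axis) taken by 5 groups of matrix genes and by markers of 4 cell types, with the 3 CNO libraries in red left of the 3 saline libraries in blue. The basement membrane share lies below saline in every CNO library, the oligodendrocyte markers lie above saline in every CNO library, and the other groups overlap.

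Other matrix genes gave a similar picture. In 7 further lists with 153 tested genes, limma called 0, with 2 higher and 12 lower at an unadjusted p under 0.05, and the median log2 fold change was -1.12. Without overlap between groups, 5 of the 153 were higher in every CNO library and 18 lower. All tested genes gave 2.28% higher and 7.25% lower at that p, and 4.57% higher and 12.5% lower without overlap, so that these counts are near the background. Other collagens and laminins had a median of -2.61 (16 tested), chondroitin and heparan sulfate synthesis -1.72 (28), collagen folding and crosslinking -1.27 (19), hyaluronan genes -0.99 (9), other metalloproteases and inhibitors -0.77 (29), matrix receptors -0.62 (20) and other glycoproteins and proteoglycans 0.27 (32). The smallest p belonged to Lox (lysyl oxidase, which crosslinks collagen and elastin), with 0 reads in every CNO library and 47.6, 124 and 80.0 normalized counts in saline 3, 4 and 5 (limma unadjusted p = 0.00417, adjusted p = 0.488). DESeq2 called Lox as lower, and it was the 1 gene of these lists that any of the methods called. Of all tested genes, 3.98% had 0 reads in every CNO library. Hyal1, of the hyaluronan list, had 0, 54.0 and 0 in CNO 1, 2 and 3. In saline 3, 4 and 5 it had 353, 136 and 472 (limma unadjusted p = 0.0148, adjusted p = 0.488). Thbs1 averaged 8.58 in CNO and 222 in saline (limma unadjusted p = 0.0199). Dse and Lyve1 were the 2 higher genes at an unadjusted p under 0.05, where 12 were lower. Dse (dermatan sulfate epimerase) had 1454, 1504 and 1723 in CNO 1, 2 and 3 and 329, 423 and 905 in saline 3, 4 and 5 (log2 fold change 1.63 ± 0.66, adjusted p = 0.498). Lyve1 (a hyaluronan receptor of perivascular macrophages and lymphatic vessels) had 9039, 5801 and 10771 in CNO 1, 2 and 3 and 2666, 4949 and 3591 in saline 3, 4 and 5 (1.19 ± 0.42, adjusted p = 0.488). Mrc1 (the mannose receptor of the same macrophages) was also higher in every CNO library, with 34450, 25625 and 55623 in CNO 1, 2 and 3 and 14867, 21632 and 16311 in saline 3, 4 and 5. Of the 12 microglia and macrophage markers, 2 were higher in every CNO library, their median log2 fold change was -0.064, and Aif1 (a marker of the same lineage) had -3.15. The list took 0.841%, 0.640% and 1.34% of reads in CNO 1, 2 and 3 and 1.15%, 1.28% and 1.52% in saline 3, 4 and 5. The part of macrophages in the Lyve1 values was not tested.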

How the data were processed

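RNA of sorted cells was measured in 3 CNO and 3 saline libraries, made from 10 ng of total RNA each per the labels' protocols. STAR 2.5.0a (build mm10), DESeq2 1.20.0, Trimmomatic 0.4, MultiQC 0.9 and FastQC 0.10.1 are named in the submitters' processing notes. Not given in the sources used here are the counter, the annotation and how strand was handled. What the authors deposited is a signal: each gene's reads after division by a size factor of its library. In every library 100% of values were whole multiples of 1 step (relative tolerance 1e-06), which gave back whole reads; intervals and floors on such reads cover counting error only, and a floor of 3 reads was used.

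Genes with a mean of at least 10 were tested with limma 3.58.1 (R 4.3.3) after taking log2(normalized count + 1), with a variance trend, 2-sided, adjusted by Benjamini-Hochberg at 0.05 over all tested genes. A fold change is a difference of mean log2 values: the added 1 understates the change of low genes present in all libraries, and a library with 0 reads can make it far larger than the ratio of means. edgeR 4.0.16, DESeq2 1.42.0 (with the deposited size factors) and limma-voom used the recovered reads, and called 0, 242 and 16 genes. The method was tested on simulated data. The genes and lists were chosen with earlier results of these data known. Library values are given for genes with an unadjusted p under 0.05, no overlap with the higher group averaging 50 or more, one of the 8 highest means, or 0 reads in a group, and for others of their families. Up to 3 genes by smallest p were eligible from each other list. Other genes named here were chosen after their values were seen. Coordinates and exon lengths are from GENCODE M21 on GRCm38, the assembly of mm10. Figures were drawn with matplotlib 3.10.9.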

Additional observations from a re-analysis of the deposited data

How the results depend on the processing

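The count of 0 matrix genes called held under all 21 alternatives, 19 planned and 2 added after the data were seen (only genes read in all libraries, scaling by total reads). Against 2 of all genes called, both higher, the count was 0 in edgeR, without a variance trend, with quantile scaling or scaling by total reads, for genes with a mean of at least 50 and for genes read in all libraries, 0 to 0 with any 1 library left out, 11 with array weights, 16 with limma-voom and 242 with DESeq2 (66 higher, 176 lower). In the other matrix lists DESeq2 called 1. The median log2 fold change of the matrix genes, -0.78, was -0.51 with a mean filter of 50, -0.35 in edgeR, -0.11 in DESeq2, -1.14 in limma-voom, -0.34 for genes read in all libraries and -1.48 with scaling by total reads, and -1.01 to -0.61 with a library left out. The median of all genes, -0.89, became -0.996 with TMM, -1.52 with scaling by total reads, -0.078 with quantile scaling (matrix genes -0.62), -0.11 in edgeR and -0.45 without CNO 1. The matrix median lay below that of all genes in 11 of 21 alternatives.

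Among the 13 named and tested genes, 15 of 267 values turned sign, all of them for Vcan, Bcan, Ncan, Acan and Sdc2. Vcan was 0.017 with array weights, 0.079 in edgeR, 0.16 in DESeq2, 0.037 in limma-voom, and -1.05 to 0.59 with a library left out. Bcan was -0.12 with quantile scaling and -0.11 with scaling by total reads. Ncan was -0.43 with quantile scaling, -0.14 in limma-voom, -0.41 with scaling by total reads, and -0.39 to 0.90 with a library left out. Acan was 0.23 with quantile scaling and -3.08 to 0 with a library left out, 0 because only saline 3 held reads. Sdc2 was 0.15 in edgeR, 0.38 in DESeq2, and -3.42 to 0.42 with a library left out. The cause of these changes was not tested. Timp3 remained higher throughout, from 1.06 with scaling by total reads to 2.10 with a covariate for Xist above 10000, with adjusted p of 0.152 to 0.709. The limma unadjusted p of Timp3 rose above 0.05 without a variance trend (0.077) and with scaling by total reads (0.065). Hspg2 was -6.44 to -2.73, with adjusted p of 0.120 to 0.750, and has no value where it fails a filter. The matrix genes with an unadjusted p under 0.05 numbered 1 to 6 over the alternatives. No paired analysis was possible because the groups share 1 replicate number.

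A value of 1 read in CNO 1 equals 4.23 normalized counts, so levels near this value are not resolved there.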
